A study of Equus caballus with 34 samples.

Results

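The ribosome of the cytosol is built from a large 60S and a small 40S subunit, each an RNA core dressed with many ribosomal proteins. These proteins are made in matched amounts, their mRNAs are among the most abundant in any dividing or secreting cell, and they carry a 5′ terminal tract of pyrimidines through which growth signals adjust their translation. In an ovarian follicle the granulosa cells divide and make hormones until the surge of luteinising hormone, after which they stop dividing and turn towards progesterone synthesis. Members were the non-control array probes described as a 60S or 40S ribosomal protein, or carrying an RPL or RPS symbol with a number, without the mitochondrial proteins and the S6 kinases. The text of that rule matched 199 of 43603 probes, and all 199 were well above background on 34 of 34 arrays, so none was lost to the requirement of at least 5 arrays. They represent 67 of 23784 loci as the files name them and 55 proteins, with 93 probes for 60S proteins, 105 for 40S proteins and 1 for RPS19BP1, a nucleolar protein that binds S19 and is no part of the ribosome itself. Members are not independent of each other, since RPS20 had 19 probes, RPS26 and RPS12 had 10 each, and several sets of probes were shifted along 1 transcript by single bases.

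The samples were RNA from the horse (Equus caballus), taken from dominant follicles. The sample titles give layer and stage and name no treatment, which does not show that none was given. Granulosa cells (GC), the layer lining the follicle cavity, were hybridised with 5 arrays for each of 3 stages, here called ED for the early dominant follicle, LD for the late one and PO for the preovulatory one. Theca wall (TW), the vascularised outer layer, had 5 ED, 9 LD and 5 PO arrays. The theca wall is a piece of tissue that also holds vessels and blood cells, so its values are averages over cell types, and fewer cells of a type and less RNA per cell cannot be told apart. The sources used here do not state age or breed of the animals, or whether GC and TW came from the same follicles. The submitters call the samples of a group biological replicates.

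The arrays carried 43803 non-control spots, and their own 75th percentiles ranged from 773 to 1985 units of processed signal. All levels below are log2 of the processed signal above that percentile. Over 8 theca and stroma markers the mean level lay between 1.29 and 3.01 in TW and between −3.47 and −0.91 in GC, so the layers did not overlap. Over 8 granulosa markers it lay between 2.84 and 3.74 in GC ED, between −0.53 and 3.36 in GC LD and between −0.60 and 0.73 in GC PO, against −3.53 to 0.35 over the TW arrays. On these markers the layers overlapped, since TW ED 5 at 0.35 and TW ED 3 at −0.51 lay above the lowest GC LD and GC PO arrays. The 8 granulosa markers did not change alike. From GC ED to PO their differences ran from −9.16 for HSD17B1 to 0.01 for NR5A2, with a median of −3.08. Averaged over the stages, each of the 8 was higher in GC than in TW, by 2.22 for INHA to 6.11 for CYP19A1. The 4 arrays of slide 7 (TW ED 4, TW LD 6, TW LD 7 and TW PO 4) had a coefficient of variation over repeated probes of 15.9% to 24.9%, against at most 7.01% elsewhere. Each of 5 slides held all 3 GC stages and each of the other 5 held all 3 TW stages. Only slides 2 and 8 held both layers, through 1 TW LD array each, although the design text has every group on every slide.

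Several ribosomal proteins had probes at more than 1 locus, and the sequences are shown because the copies gave different readings. RPS9, a 40S protein at the channel where mRNA enters, had a probe at its chromosome 10 locus (chr10:18037489-18037548 in the coordinates of the array design, whose build the sources used here do not name) and 5 probes from a partial cDNA with no position. A chromosome 10 probe and a cDNA probe align over 60 bases with 8 differences, written in capitals.
RPS9 at chromosome 10: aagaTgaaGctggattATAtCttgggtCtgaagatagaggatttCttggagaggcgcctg
RPS9 from the cDNA: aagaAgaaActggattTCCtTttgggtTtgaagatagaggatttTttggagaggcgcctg
RPL38, a 60S protein that in the mouse is needed for normal patterning of the skeleton, had probes at 3 loci. Shown are those on the unplaced sequence (chrUn:156840354-156840413, minus strand) and on chromosome 3 (chr3:13490496-13490555, minus strand), which overlap by 57 bases and differ at 10 of them, in capitals.
RPL38, unplaced: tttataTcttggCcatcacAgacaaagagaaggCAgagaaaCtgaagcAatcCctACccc
RPL38 at chromosome 3: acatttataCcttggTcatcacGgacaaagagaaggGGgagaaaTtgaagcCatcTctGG
RPL10, which joins the 60S subunit last and readies it for work, was represented by 5 probes on chromosome 1 (the one shown at chr1:175001294-175001353, minus strand) at a locus that RefSeq names RPL10L. Probes described as RPL10-like lay on the unplaced sequence (the one shown at chrUn:276241153-276241212). The pair overlaps by 55 bases with 7 differences, in capitals.
RPL10-like, unplaced: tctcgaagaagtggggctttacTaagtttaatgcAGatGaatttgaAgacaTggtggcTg
RPL10 at chromosome 1: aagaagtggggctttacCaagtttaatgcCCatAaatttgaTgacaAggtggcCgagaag
RPL3L, the paralog of RPL3 known from skeletal and heart muscle in mouse and human, is shown because it gave the widest difference between layers among the loci. Its probe lies on the unplaced sequence (chrUn:73754409-73754764, minus strand) over a span longer than its 60 bases.
RPL3L: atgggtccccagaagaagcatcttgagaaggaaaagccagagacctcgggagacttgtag

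The probes of such a pair differed widely in brightness. The RPS9 probe of chromosome 10 had a median mean signal of 47653 over the 34 arrays and its cDNA partner one of 4684. The 5 cDNA probes, each shifted by 1 base, had medians from 3533 to 10545. The RPL10-like probe stood at 65049 and was saturated on 28 arrays, while the 5 chromosome 1 probes had medians from 3980 to 6857 and were never saturated. A probe's brightness depends on its own sequence and on what else binds it, so these figures order no transcripts. The aligned pairs were 82.5% to 87.3% identical, and no RPL7A pair was aligned. How far a probe also binds transcripts of another copy was not measured, so the signals of copies cannot be fully told apart. The loci of RPS9, RPL38, RPL10 and RPL7A are therefore given as uncertain. Another 3 probes named RPS12 (chr10:73738203-73738331) were dim, at 94.3 to 140. They lie inside the 1139 bases spanned by a split RPS12 probe (median 54328) and share no run of 12 bases with it. They were designed on a cDNA clone from blood leukocytes and need not read the same RPS12 mRNA. Finally, a probe described as S24 sits at a locus that RefSeq names EIF2S2, and a probe described as S15a carries an accession of ARL6IP1.

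The end of the scanner's range set the frame for the whole family. Pixel values stop at the scanner's highest number, and 162 of the 199 probes were saturated on at least 1 array and 79 on 17 or more. Of 6766 pairs of a member and an array, 39.0% were saturated, against 0.336% for all other probes. The members are 0.456% of the probes and hold 34.7% of all saturated pairs and 42 of the 100 brightest probes. The most often saturated were a pair of RPS20 probes, on 32 and 31 arrays, followed by probes of RPS18, RPS19 and RPS28 on 29 each. RPS20 is a 40S protein of the subunit's head. On single arrays the number of saturated members ran from 0 on GC ED 4 and GC LD 4 to 148 on TW LD 8, with a median of 77.5. By group the medians were 7 in GC ED, 38 in GC LD, 110 in GC PO, 76 in TW ED, 116 in TW LD and 85 in TW PO.

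Only 37 probes, at 20 loci of 18 proteins, were never saturated. Over the 34 arrays their log2 signal before scaling had a median SD of 0.612, against 0.244 for the 162 others. The split uses brightness and not the stages, but it was made with the results known, so counts on either side of it are a description. For 70 members every array of at least 1 group was saturated, and for these the level in that group is only a lower bound.

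Levels were also set against the brightness of the arrays. Before scaling, the log2 median over the 199 probes was higher on arrays with a higher 75th percentile, with Pearson r = 0.72 and Spearman rho = 0.76 over 15 GC arrays (permutation p = 0.00169 and 0.00162, 100000 resamples). Over 19 TW arrays r was 0.60 and rho 0.54 (permutation p = 0.00556 and 0.0195). After adjustment over the 9 relations computed, these p-values were 0.0038 and 0.00364 in GC and 0.01 and 0.0352 in TW. Both quantities are unscaled signals of the same arrays, so array brightness alone pushes their correlation above 0. The permutations also ignored the stages, and the p-values therefore say nothing particular to the ribosomal protein probes. Without the 2 arrays farthest from the median percentile, r was 0.57 in GC and 0.30 in TW, so in TW the relation rested on those arrays. The level has the percentile subtracted from it, which by itself pushes its correlation with the percentile below 0, so the following values are a description with no test. For the median level over the 199 probes r was −0.50 in GC and −0.96 in TW, and over the 37 never-saturated probes it was 0.16 and −0.32. The part of the ceiling in these values was not tested.

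**Figure D1:**
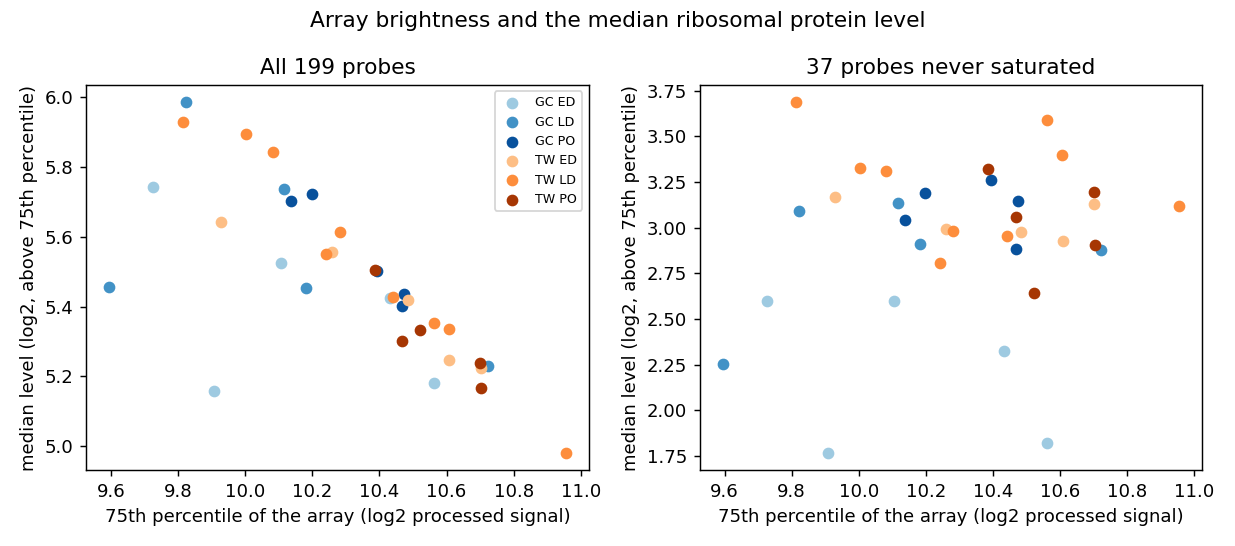
Median level of the ribosomal protein probes (log2 above the array's 75th percentile, y axis) against that percentile (log2 processed signal, x axis), which is subtracted in y, 1 point per array, coloured by group, for all 199 probes (left) and the 37 never saturated (right). On the left the TW arrays fall along a line (r = −0.96), and on the right they do not (r = −0.32).

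Before any stage test, the median over all 199 probes was 5.16 to 5.74 on the GC ED arrays, 5.23 to 5.99 in GC LD and 5.40 to 5.72 in GC PO. In TW it was 5.22 to 5.64 in ED, 4.98 to 5.93 in LD and 5.17 to 5.50 in PO. The 6 groups overlapped in this median. The never-saturated median differed more. It was 2.60, 2.60, 1.82, 1.77 and 2.32 on the 5 GC ED arrays, and 3.04, 3.26, 3.15, 2.88 and 3.19 on the 5 GC PO arrays, and these 2 groups did not overlap. GC LD lay between and overlapped both neighbours (2.25 to 3.14), and the TW groups covered 2.93 to 3.17 in ED, 2.81 to 3.69 in LD and 2.64 to 3.32 in PO.

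The comparison of stages in granulosa cells asked how the layer changes as the follicle grows and prepares to ovulate. From ED to PO, 18 of the 199 probes rose and none fell (limma with Benjamini-Hochberg adjustment over all probes tested, adjusted p under 0.05, 5 against 5 arrays). Of all probes tested, 44.6% were called in this comparison, 23.1% higher and 21.5% lower, and the members' share was 9.05%. By saturation, 16 of the 37 never-saturated members rose (43.2%), beside 23.4% called higher of the other never-saturated probes. Of the 162 members saturated on at least 1 array 2 rose (1.23%), beside 11.3% called higher of the other such probes. These shares are a description, since the split by saturation was made with results known. The 37 probes lie at 20 loci and include probes shifted along 1 transcript by single bases, so they are not independent. The median difference over the members was 0.19, against 0.08 over all probes tested, and 0.56 over the never-saturated members. Counted once per locus, 11 of 67 rose. The count fell to 11 without any 1 of GC ED 3, GC ED 4, GC PO 3 or GC PO 5, and to 11 without the slide of GC ED 4 and GC LD 4. Those 2 arrays had the lowest member medians before scaling, 15.07 and 15.05 on the log2 scale.

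**Figure D2:**
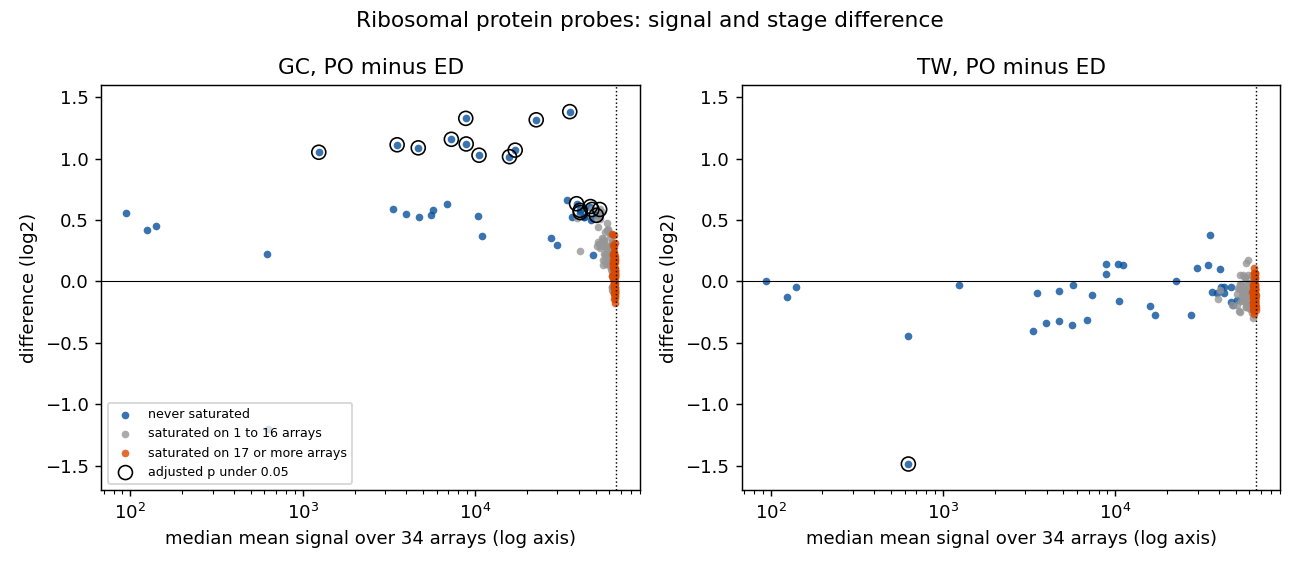
PO minus ED difference (log2, y axis) of each of the 199 ribosomal protein probes against its median mean signal over 34 arrays (log x axis), in GC (left) and TW (right), with the scanner's highest value as a dotted line and rings around calls. In GC 16 of the 18 rings lie on never-saturated probes, and towards the end of the range the differences narrow around 0.

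Among 40S genes the cDNA probes of RPS9 moved most clearly. The brightest of them read 2.21, 2.48, 1.82, 1.18 and 1.99 on the GC ED arrays and 2.87, 3.07, 2.77, 2.88 and 3.24 on the GC PO arrays. Every PO array lay above every ED array. The difference was 1.03 ± 0.28 (SE) on the log2 scale, or 2.04-fold (adjusted p = 0.00829), and all 5 cDNA probes rose, by 1.03 to 1.16. After quantile normalization the difference was 0.68 (adjusted p = 0.0507). GC LD overlapped both stages, at 2.70, 2.54, 3.14, 1.83 and 2.88. The RPS9 probe at chromosome 10, saturated on 1 array, read 5.15, 5.07, 4.46, 4.41 and 5.11 in ED and 5.32, 5.50, 5.43, 5.23 and 5.65 in PO. It also rose without overlap, by 0.59 ± 0.22 (adjusted p = 0.0447). This call held in 7 of the 15 fits that left out 1 GC array (adjusted p up to 0.112) and in 9 of 14 other alternatives. The fitted rise was smaller than at the cDNA probe, and the difference between the 2 probes was not tested.

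RPS19BP1, the S19-binding protein that also activates the deacetylase SIRT1, read 0.29, −0.13, −0.85, −0.96 and −0.45 in GC ED and 0.63, 0.60, 0.89, 0.52 and 0.53 in GC PO. All PO arrays were above all ED arrays, and the difference was 1.05 ± 0.29 (2.07-fold, adjusted p = 0.00876).

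Among 60S genes RPL38 rose at its 2 never-saturated loci. The chromosome 3 probe read 2.08, 1.53, 0.72, 0.69 and 1.93 in GC ED and 2.66, 3.14, 2.65, 2.38 and 2.76 in GC PO, a difference of 1.33 ± 0.36 (2.51-fold, adjusted p = 0.00861). The unplaced probe read 3.76, 3.69, 1.54, 2.92 and 3.95 in ED and 4.50, 4.55, 4.57, 4.31 and 4.52 in PO. Neither locus overlapped between the stages, and at the unplaced locus GC ED 3 stood lowest by more than 1 log2 unit. That difference was 1.32 ± 0.41 (adjusted p = 0.0177), and it was 0.91 without GC ED 3. The third locus, on chromosome 11, was saturated on 9 arrays and differed by 0.29 (adjusted p = 0.26).

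RPL26L1, the paralog of RPL26, read 3.71, 3.54, 3.31, 2.87 and 3.52 in GC ED and 4.33, 4.53, 4.35, 4.50 and 4.32 in GC PO. The PO arrays lay close together and above all ED arrays, with a difference of 1.02 ± 0.25 (2.02-fold, adjusted p = 0.00497). The second RPL26L1 probe rose by 1.07. The 5 LD arrays were spread over both stages, at 3.61, 4.26, 4.49, 3.28 and 3.47.

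RPL27A, a 60S protein, gave the largest fitted rise among the loci and one of the least even. Its never-saturated probe read 3.21, 3.27, 4.04, 2.28 and 4.51 in GC ED and 4.86, 5.30, 5.38, 4.78 and 3.89 in GC PO. One PO array lay within the ED range. The difference was 1.38 ± 0.42 (2.61-fold, adjusted p = 0.0151), whereas the locus' other probe, saturated on 8 arrays, differed by 0.40 (adjusted p = 0.122). The call was lost after quantile normalization (adjusted p = 0.0623) and without the slide of GC ED 4 (adjusted p = 0.0515).

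The remaining risers moved less. RPL35, near the tunnel through which the new chain leaves, rose by 0.61, RPL30 at the locus ENSECAT00000005029 by 0.59, RPL19, which forms a bridge to the 40S subunit, by 0.56, and RPL23, which can bind MDM2, by 0.54. Of the 15 fits that left out 1 GC array, RPL35 passed in 10, RPL30 in 8, and RPL19 and RPL23 in 7 each. Within the 5 slides that held all GC stages, PO minus ED was above 0 on 5 of 5 slides for RPS9 (0.59 to 1.70), RPL26L1 (0.62 to 1.63), both RPL38 loci (0.58 to 1.93 and 0.56 to 3.03) and RPS19BP1 (0.33 to 1.74), and on 4 of 5 for RPL27A (−0.62 to 2.50). For the never-saturated median it was 0.44 to 1.32, above 0 on all 5.

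Leukocyte markers changed in the same comparison. The mean level over 5 of them was −5.87 to −4.43 in GC ED and −3.71 to −1.72 in GC PO, with 4 of 5 called higher, and that over 4 smooth muscle and pericyte markers was −5.25 to −4.51 and −3.09 to −1.88. In GC PO both stayed below their lowest TW values of −1.03 and −0.29. All 5 leukocyte markers were well above background on every GC PO array, and 2 on every GC ED array. Their part in the ribosomal protein differences was not tested.

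The 2 shorter steps in GC gave no member calls. GC LD was a mixed group on the granulosa markers. GC LD 2 and GC LD 3 read 0.26 and −0.53, within the GC PO range, and GC LD 1, GC LD 4 and GC LD 5 read 2.63, 2.64 and 3.36. The part of this spread in the absence of calls was not tested. From ED to LD, 0 of 199 were called (limma, 5 at an unadjusted p under 0.05), where 0.00307% of all probes were, and 195 members had a difference above 0, with a median of 0.16. From LD to PO, 0 were called (2 at an unadjusted p under 0.05) against 16.7% of all probes (7.05% higher and 9.66% lower), and the median was 0.02. With all 34 arrays in 1 fit, or without GC LD 3, the count from LD to PO was 2.

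**Figure D3:**
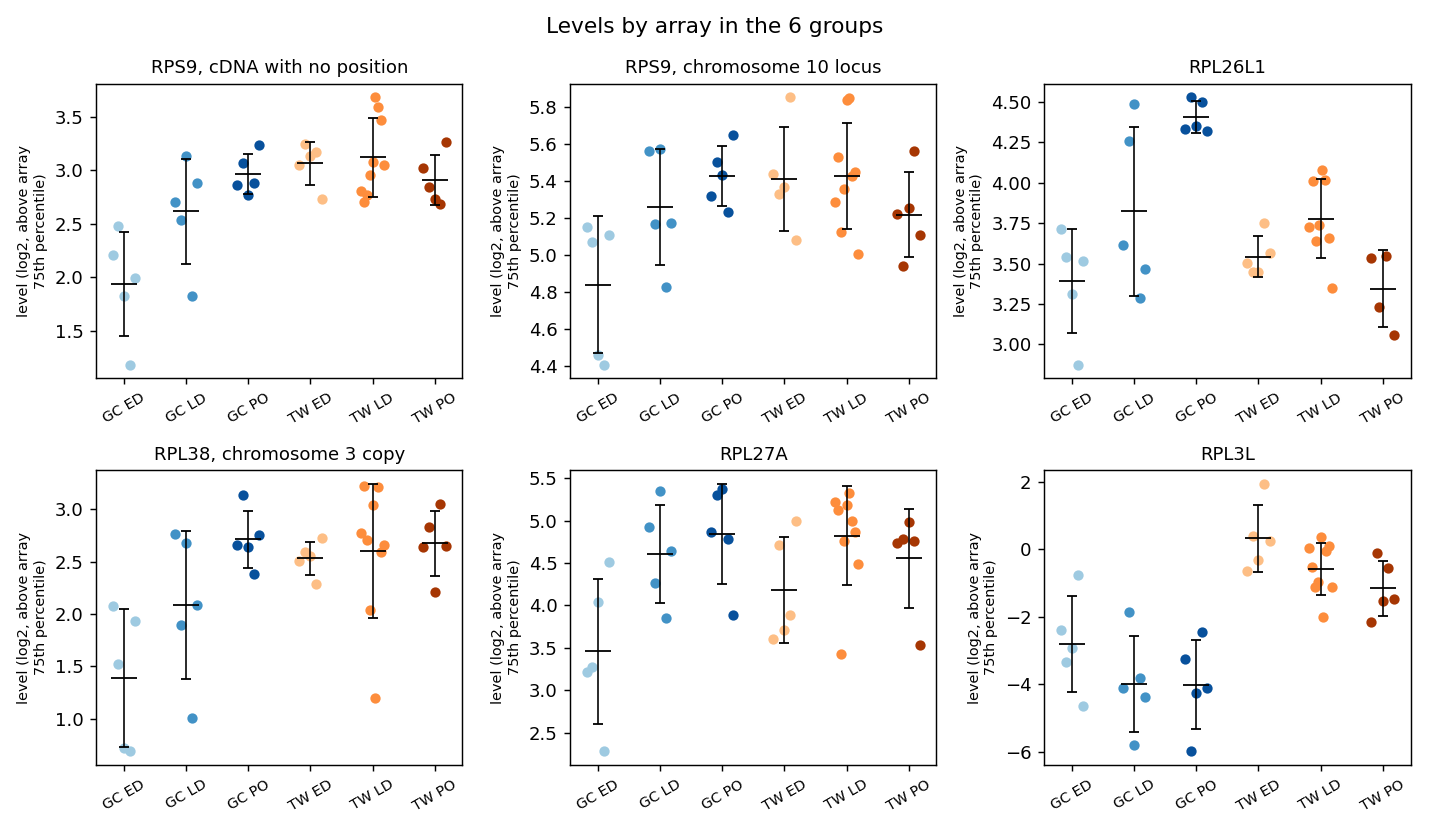
Level on each array (points, log2 above the array's 75th percentile), with mean and SD (bars), in the 6 groups for RPS9 from the cDNA, RPS9 at chromosome 10, RPL26L1, RPL38 at chromosome 3, RPL27A and RPL3L. The 5 GC PO arrays lie above all GC ED arrays for both RPS9 probes, RPL26L1 and RPL38, and RPL3L lies lower in GC than in TW on 13 of 15 GC arrays.

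In the theca wall, from ED to PO, 0 members rose and 1 fell, against 24.5% of all probes called and 8.67% called lower (limma, 5 against 5 arrays). The median difference over the members was −0.11, against 0.11 over all probes tested, and 27 of 199 were above 0. Taken against all probes the members' median was −0.22 on this scale and 0.0084 after quantile normalization. The faller was RPL3L, which read −0.65, 0.40, −0.33, 1.94 and 0.25 in TW ED and −2.15, −0.11, −1.52, −0.55 and −1.47 in TW PO. The stages overlapped, and 3 of 5 PO arrays lay below every ED array. The difference was −1.49 ± 0.50 (2.80-fold lower, adjusted p = 0.0386), and within the 5 TW slides it was below 0 on each (−2.49 to −0.52). The call was lost with all 34 arrays in 1 fit (adjusted p = 0.131), with slide as a block (adjusted p = 0.0628), and without any 1 of TW ED 2, TW ED 4, TW ED 5, TW PO 1, TW PO 3 or TW PO 5, where the value ranged from −1.50 to −1.08.

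From ED to LD 0 members were called, at 0% of all probes (limma, 0 members at an unadjusted p under 0.05). From LD to PO 0 were called at 14.1% of all probes (9.33% higher and 4.81% lower), with 16 at an unadjusted p under 0.05. The median from LD to PO was −0.24 and only 7 of 199 probes were above 0, against a median of 0.07 over all probes tested. This step depended on the scaling, since with arrays centred on their medians 64 members were called lower, and without TW LD 9 the count was 7. The share of all probes called under that centring is not given here. TW LD 9 was the array with the highest 75th percentile and the lowest member median, 4.98.

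The genes that rose in granulosa cells read differently in theca wall. RPS9 from the cDNA read 3.05, 3.25, 3.13, 3.17 and 2.73 in TW ED, 2.70 to 3.69 with a median of 3.05 in TW LD, and 3.02, 2.85, 2.73, 2.69 and 3.26 in TW PO. RPL26L1 read 3.50, 3.45, 3.45, 3.75 and 3.57 in TW ED and 3.54, 3.23, 3.54 and 3.06 in TW PO, where 1 spot carried an outlier flag and dropped out. RPL38 at chromosome 3 read 2.51, 2.59, 2.55, 2.28 and 2.72 in TW ED and 2.64, 2.83, 2.21, 3.05 and 2.65 in TW PO. In these 3 genes the TW stages overlapped. For RPS9 and the chromosome 3 RPL38 probe every GC ED array lay below every TW ED array, whereas for RPL26L1 the GC PO arrays lay above every TW array.

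Whether the ED to PO change differed between layers was tested directly as an interaction over all 34 arrays. It was positive in GC relative to TW for 15 members (7.54%) and negative for none. Of all probes tested 28.6% were called, 12.7% positive and 15.8% negative. Of the 15, 13 lay among the 37 never-saturated members (35.1%), beside 12.8% called positive of the other never-saturated probes. The split by saturation was made with results known, and the 37 probes include some shifted along 1 transcript, so these shares are a description. The median interaction over the members was 0.30, against −0.15 over all probes tested. The count was 13 without TW ED 5 and 9 without TW ED 3, the TW arrays with the highest granulosa marker levels. By locus 7 of 67 passed. RPL26L1 differed by 1.22 ± 0.29 (adjusted p = 0.00316), RPS9 from the cDNA by 1.18 ± 0.33 (adjusted p = 0.00877) and RPS19BP1 by 1.08 ± 0.30 (adjusted p = 0.00866). These 3 held in each of the 34 fits that left out 1 array. RPL38 at the unplaced locus differed by 1.32 ± 0.49 (adjusted p = 0.0439, held in 19 of 34), RPS9 at chromosome 10 by 0.78 (adjusted p = 0.0339, 28 of 34), RPL35 by 0.78 (adjusted p = 0.0343, 27 of 34) and RPL23 by 0.69 (19 of 34). For the chromosome 3 RPL38 probe the interaction was 1.18 (adjusted p = 0.0575). The count of 15 fell to 7 without TW PO 2, to 9 without GC ED 3, TW ED 3 or TW PO 5, to 6 without GC ED 4 and to 8 without GC PO 5.

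The comparison of layers asked which members differ between granulosa cells and theca wall, averaged over the stages (15 against 19 arrays). On the 75th percentile scale 6 probes were higher in GC and 24 lower, 30 in all, against 52.4% of all probes called (20.4% higher and 32% lower), whereas with arrays centred on their medians 176 were higher and 1 lower, and with quantile normalization 1 was higher and 60 lower. The direction for the family as a whole therefore depended on the scaling. The shares of all probes called under the other scalings are not given here, so those counts alone cannot set the family apart from the whole array. The median over members minus that over all probes tested was 0.18 on the main scale and −0.17 after quantile normalization. Of the lower calls, 22 of 24 lay among the never-saturated probes. That is 59.5% of the never-saturated members, beside 32.3% called lower of the other never-saturated probes. Some of these probes were shifted along 1 transcript, and the split by saturation was made with results known, so the shares are a description. Counted once per locus, 9 of 67 were lower and 2 higher. Of the 6 higher probes, 4 were RPL35A probes saturated on 13 to 16 arrays. A group was saturated on every array for 2 of the 6 (an RPL35A and an RPS20 probe), so that only a bound was measured. Since layer and slide coincide but for 2 slides, slide and layer can hardly be told apart. With slide as a block, 2 probes were called, RPL3L and the RPL7A copy, both lower in GC.

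RPL3L was the member with the widest gap. It read −2.40, −3.35, −2.94, −0.75 and −4.65 in GC ED, −4.11, −1.85, −5.80, −3.82 and −4.37 in GC LD, and −3.26, −5.99, −4.27, −2.46 and −4.11 in GC PO. In TW LD its levels ran from −2.0 to 0.37 with a median of −0.54. Of 15 GC arrays, 13 lay below every TW array. The difference was −3.13 ± 0.37 (8.77-fold lower in GC, adjusted p = 2.03e-08). It kept its direction and its call under every scaling tried, and on the 2 slides that held both layers it was −3.90 and −3.57.

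The RPL7A copy on chromosome 17 (chr17:31612327-31612386) read −2.83 to −0.85 in GC ED, −2.54 to −1.04 in GC LD and −2.02 to −0.75 in GC PO. In TW it read −1.19 to −0.25 in ED, −1.55 to 0.47 in LD and −1.69 to −0.35 in PO, so that the layers overlapped and 10 of 15 GC arrays lay below all TW arrays. The difference was −0.91 ± 0.19 (1.88-fold lower in GC, adjusted p = 0.000198). The main RPL7A locus, LOC100059927, saturated on 11 arrays, differed by 0.04 (adjusted p = 0.784). RPL10 at chromosome 1 was lower in GC by 0.80 ± 0.24 (1.74-fold, adjusted p = 0.00641) for the brightest of its 5 probes, all called, while the RPL10-like probe chosen for the unplaced locus, saturated on 16 arrays, differed by 0.0046. The RPL10 copy read 0.21 to 2.60 in GC ED and 2.25 to 3.35 in TW ED. Both copies were lower in GC under every scaling tried, with adjusted p = 0.119 for RPL7A and 0.443 for RPL10 when arrays were centred on their medians.

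RPS9 from the cDNA was lower in GC by 0.53 ± 0.13 (adjusted p = 0.00107), RPL38 at chromosome 3 by 0.54 ± 0.18 (adjusted p = 0.0145) and the probe described as S24 by 0.41 ± 0.13 (adjusted p = 0.00998). All 3 turned in sign when arrays were centred on their medians (0.07, 0.06 and 0.18), as did RPL19 and RPL35. RPL26L1 was higher in GC by 0.32 ± 0.12 (adjusted p = 0.0208), with 7 of 15 GC arrays above all TW arrays. On the 2 slides that held both layers GC LD lay below TW LD instead, by −0.39 and −0.37, and after quantile normalization the call was lost (adjusted p = 0.722).

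**Figure D4:**
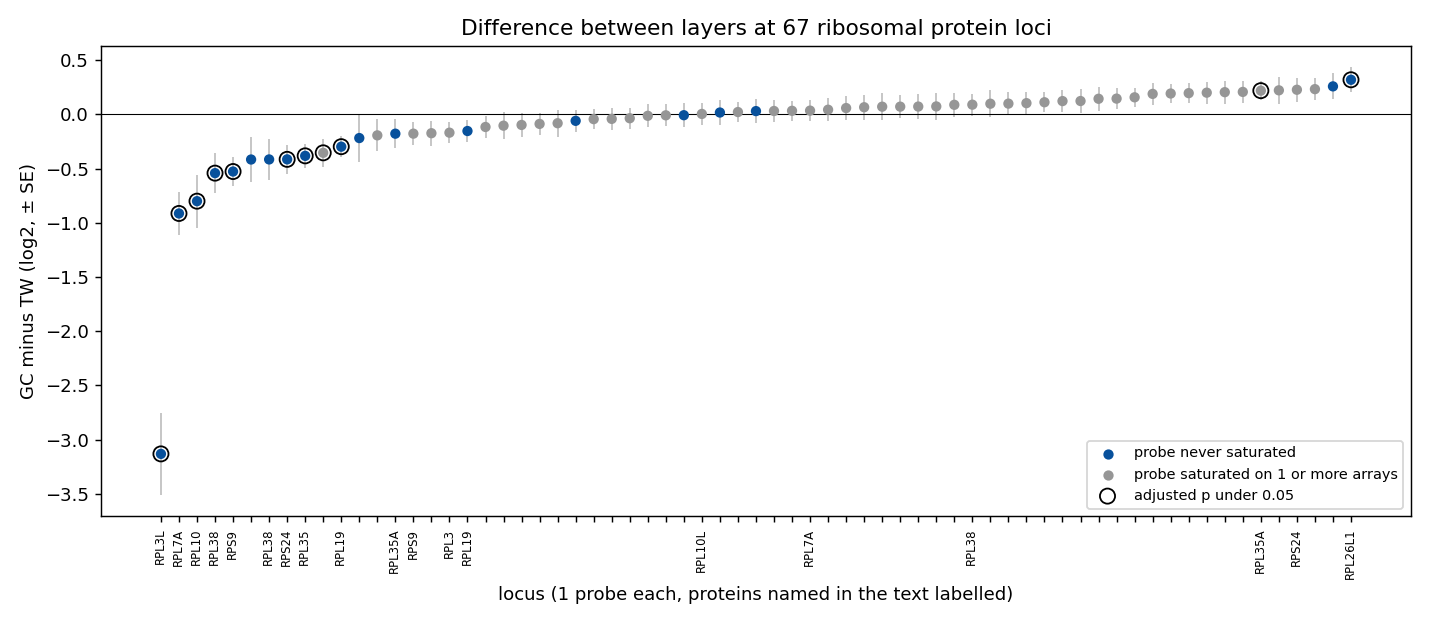
GC minus TW difference (log2, points) with its SE (lines) for 1 probe at each of 67 loci, ordered by size, with the proteins named in the text labelled, blue where the probe was never saturated and ringed where called. RPL3L stands apart at −3.13, 9 loci are called lower and 2 higher on the 75th percentile scale, and among the lower ones RPL38, RPS9, RPS24, RPL35 and RPL19 change sign when arrays are centred on their medians.

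Single proteins with functions outside the ribosome were named whatever their values. RPL5 and RPL11, which with 5S RNA hold the p53 ligase MDM2 in check, differed from GC ED to PO by 0.04 and 0.03 (adjusted p = 0.887 and 0.914) and were saturated on 21 and 23 arrays. RPS6, the target of the S6 kinases, differed by 0.12 (adjusted p = 0.638, saturated on 19), and RPS19, the protein most often altered in Diamond-Blackfan anaemia in human, by 0.02 (adjusted p = 0.945, saturated on 23). RPL3, the partner of RPL3L at the peptidyl transferase centre, differed between layers by −0.17 (adjusted p = 0.145) with 5 saturated arrays. For RPL39, at the exit tunnel, the GC difference from ED to PO was −0.02, with 20 saturated arrays.

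Other named proteins had probes that were saturated on few arrays or on none. RPS4X, saturated on 1 array, differed by 0.25 from GC ED to PO (adjusted p = 0.387), and RPL36A, saturated on 2, by 0.32 (adjusted p = 0.233). RPL22, whose product in the mouse represses its paralog, had 3 probes, all never saturated. They differed by 0.59, 0.30 and 0.21 from ED to PO (adjusted p = 0.0659, 0.461 and 0.469), from the dimmest (median 3348) to the brightest (48167). The dimmest passed in the interaction, at 1.00 (adjusted p = 0.0249), while the brighter probe that represents the locus did not.

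Ribosomal proteins whose descriptions lack the words of the rule form a second look at the same family. This list of 17 was drawn up after the values were known, and 2 of its members rose from GC ED to PO. They were RPL7L1, a paralog of RPL7 that acts in ribosome assembly (1.21 ± 0.22, adjusted p = 0.000807), and RPL22L1, the paralog of RPL22 (2.46 ± 0.69, adjusted p = 0.0127). Neither was saturated on any array. None of the 17 fell, and their median was 0.27. Over all probes tested, 23.1% were called higher and 21.5% lower in this comparison. Of the stalk proteins outside the rule, none of RPLP0, RPLP1 and RPLP2 was called (0.13, −0.15 and 0.27, adjusted p = 0.66, 0.659 and 0.352), with RPLP1 saturated on 32 arrays.

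The machinery that builds ribosomes and feeds them was set beside these genes. Of 42 measured ribosome biogenesis factors, 26 rose from GC ED to PO and none fell, with a median of 0.77. PNO1, needed for the 40S subunit, rose by 2.27 ± 0.44 (adjusted p = 0.00107), RRS1, which brings the 5S particle to the 60S subunit, by 2.08 ± 0.41 (adjusted p = 0.0012) and BYSL, which acts late in 40S assembly, by 1.93. Of 27 translation factors 12 rose and 1 fell. EIF4E, the cap-binding protein, rose by 1.55 and EIF3I by 1.33, and EIF5 fell by 1.01. Of 52 mitochondrial ribosomal proteins 33 rose and none fell (median 0.79). Of 14 regulators 6 rose and 1 fell. NOLC1 stands both in this list and among the biogenesis factors, and it is counted in each wherever it was called. RPS6KA3, a p90 ribosomal S6 kinase, rose by 4.94 ± 0.72 (30.6-fold, adjusted p = 0.000245). MYC, a driver of ribosome synthesis, rose by 2.91 ± 0.50 (adjusted p = 0.000514) and EIF4EBP1, which binds EIF4E, by 3.24 ± 0.61 (adjusted p = 0.00085), while RPS6KB1, a p70 S6 kinase, fell by 1.01. Beside these lists stand the 23.1% of all probes called higher and the 21.5% called lower.

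From TW ED to PO, 15.8% of all probes tested were called higher and 8.67% lower. Of 41 biogenesis factors 3 rose and 1 fell, of 27 translation factors 0 were called, and of 52 mitochondrial ribosomal proteins 1 rose and 7 fell, with medians of 0.11, 0.00 and −0.23. Of 14 regulators 5 rose and none fell, with RPS6KA3 at 2.54 ± 0.49 (adjusted p = 0.00195). In the interaction, which tests the difference between layers in the change from ED to PO, 12.7% of all probes were positive and 15.8% negative. There 15 of 41 biogenesis factors, 9 of 27 translation factors and 37 of 52 mitochondrial ribosomal proteins were positive, and 1 mitochondrial protein, MRPL52, was negative. Of the regulators 4 were positive, RPS6KA3 among them at 2.40 (adjusted p = 0.0425), and 1 was negative.

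**Figure D5:**
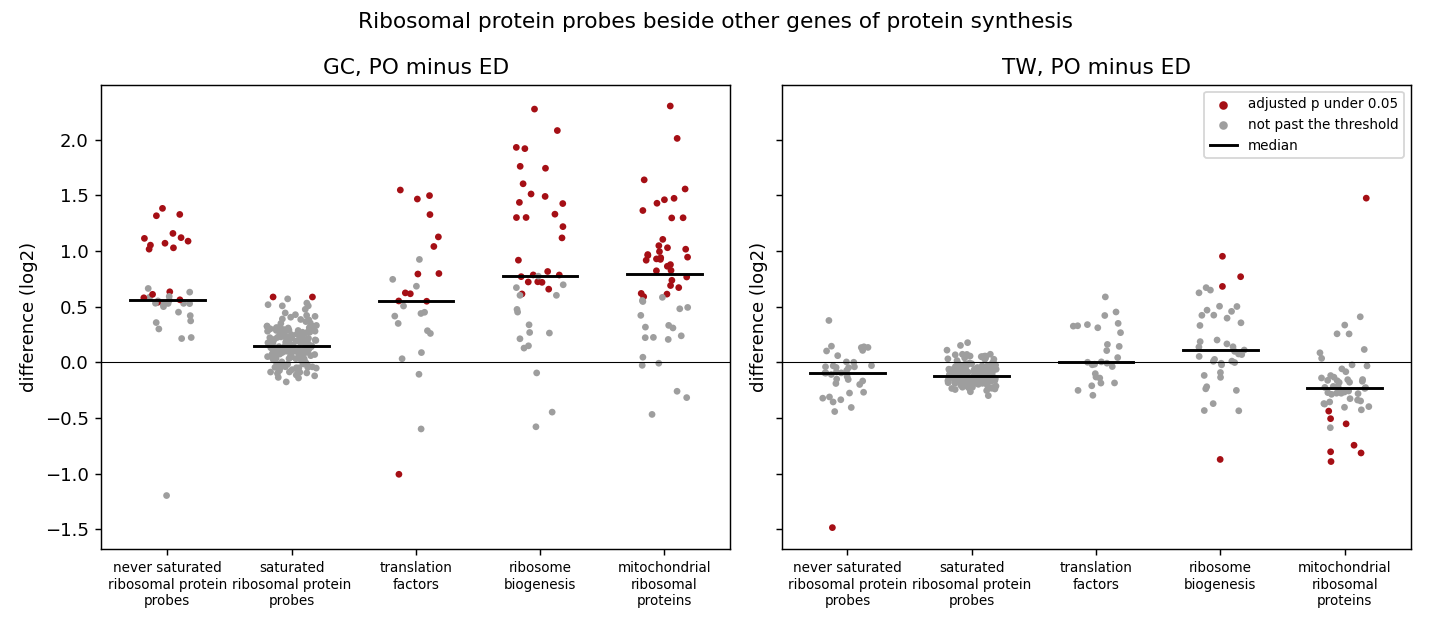
PO minus ED difference (log2, y axis) in GC (left) and TW (right) for the 37 never-saturated and 162 saturated ribosomal protein probes and for 1 probe per gene of 3 other lists, red where called, with bars at the medians. In GC the medians are 0.56, 0.14, 0.55, 0.77 and 0.79 from left to right, and in TW −0.10, −0.12, 0.00, 0.11 and −0.23.

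The probes outside the rule whose level over the 34 arrays was most like the median over the 67 loci were named for other ribosomal proteins, or for RPL21, which also has members at other loci. Among 9172 genes, RPLP2 had a Pearson r of 0.95, RPL21 and RPL14 of 0.92 and 0.91, RPS27A of 0.91 and RPL13A of 0.89. These probes share the arrays, the scaling and the upper end of the range with the members, and 4 of the 5 were themselves saturated on 6 to 17 arrays. RPS27A was not saturated on any.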

How the data were processed

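Single-colour Agilent arrays were hybridised with Cy3-labelled aRNA made from total RNA by oligo(dT) priming, per the labels' protocols. The scanner files hold intensity values as deposited: Agilent Feature Extraction (version 9.5.3.1 per the file headers, 9.1 per the submitters' processing notes) gave background-subtracted processed signals, mean signals and flags for saturation, outliers and signal well above background. The deposited value table holds log2 values, and each of its columns differed by at most 0.0329 from quantile-normalized log2 mean signal (column median 7.29), while its centring step and direction are not given in the sources used here.

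For the present values, controls and spots with an outlier flag were dropped, saturation led to no exclusion, spots of 1 probe were averaged, and log2 of the processed signal minus the array's 75th percentile was taken as the level. Probes well above background on at least 5 arrays of the fitted groups were tested with limma 3.58.1 (R 4.3.3), in 1 fit for the GC arrays, 1 for the TW arrays and 1 for all 34 arrays for the layer and the interaction, with Benjamini-Hochberg adjustment over all probes tested at 0.05. Python 3.11.15, pandas 2.3.3 and scipy 1.17.1 made the tables and permutation tests. The fit was tested on simulated data. The number of arrays limits the precision. Slide and scan coincide.

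A gene was represented by its brightest probe among those saturated on at most 2 arrays, or else by the one saturated on fewest arrays. Named were up to 6 called loci with the largest difference per comparison and direction, a list of single genes, the most saturated probes, the 5 genes most alike over the arrays, and up to 4 called genes of each other list. The members, the lists and these rules were chosen with earlier results of these data known, and some further members were named after their values were seen. Gene names come from the files, and RefSeq names from a table of the thoroughbred assembly, used for names only. Some single genes are not reported here. Other scalings, filters and slide terms, and leaving out each array, were tried as alternatives.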

Additional observations from a re-analysis of the deposited data

Results flagged for a closer look

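Single arrays stood far from the others of their group in 9 of 90 groups tested, over 13 loci and 2 family medians, where chance gives about 1 in 20. RPL35 read 4.14 on GC ED 4, the lowest of its group, against 4.68 on the nearest array. RPS19BP1 was highest on GC PO 3, at 0.89. The probe described as S24 read 1.38 on GC PO 4, against 3.04 on the nearest array, and 3.16 on TW ED 4. GC PO 2 was highest for both dim copies, at −0.75 for RPL7A on chromosome 17 and at 3.08 for RPL10 on chromosome 1. RPL27A was low on TW LD 3 (3.43) and TW PO 5 (3.53), and the unplaced RPL38 probe was lowest on GC PO 4, at 4.31.

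The change from ED to PO differed between GC and TW at these loci by the interaction test of limma. The difference was 1.32 for RPL38 at the unplaced locus, 1.22 for RPL26L1, 1.18 for RPS9 from the cDNA, 1.08 for RPS19BP1, 0.78 for RPS9 at chromosome 10 and 0.78 for RPL35.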

How the results depend on the processing

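Counts of called ribosomal protein probes depended on the processing. The shares of all probes called under each alternative are not given here, so the counts below describe the members only. From GC ED to PO the count of 18 became 11 after quantile normalization, 11 after normexp, 9 in the deposited table, 10 with 1 probe per gene name, 28 with all 34 arrays in 1 fit and 11 without the slide of GC ED 4 (an alternative chosen after seeing the data), and 11 to 20 with 1 array left out. From GC LD to PO the count of 0 became 2 with all arrays in 1 fit and 0 to 2 with 1 array left out, and it was 0 without the slide of GC ED 4. From TW LD to PO the count of 0 became 64 with median centring and 1 each after quantile normalization, after normexp, in the deposited table and with flagged spots kept, and 0 to 7 with 1 array left out. From TW ED to PO the count of 1 became 8 with median centring, 0 with slide as a fixed block and 0 in 1 fit, and was 0 to 1 with 1 array left out. Between layers the count of 30 became 61 after quantile normalization, 177 with median centring, 83 after normexp, 65 in the deposited table, 2 with slide as a fixed block and 9 with 1 probe per gene name, and 25 to 45 with 1 array left out. The interaction count of 15 became 8 after quantile normalization, 54 with median centring, 8 after normexp, 7 in the deposited table, 7 with 1 probe per gene name and 8 without the slide of GC ED 4, and 6 to 16 with 1 array left out. Counts from ED to LD were 0 in both layers under every alternative run. With median centring the layer difference turned to 0.30 for RPL19, 0.21 for RPL35, 0.055 for RPL38 at chromosome 3, 0.18 for the probe described as S24 and 0.070 for RPS9. The cause of these moves was not tested, except that 1 probe per gene name tests fewer probes and leaving out arrays uses fewer samples. No paired analysis was possible because the replicate numbers only name arrays in the order listed, and arrays were blocked by slide instead. With slide as a fixed block the count was 18 from GC ED to PO and 18 in the interaction, and with slide as a random block it was 19 and 17, 1 from TW ED to PO and 27 between layers. Saturation limits what the 162 probes saturated on at least 1 array can show.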
